A study of Homo sapiens with 12 samples.

Results

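Imatinib-resistant K562/IM cells were compared with the parental K562 cells from which they were made, gene by gene, in messenger RNA. K562 is a human myeloid leukemia cell line that carries the BCR-ABL fusion kinase, and the study derived K562/IM from it by raising imatinib (IM) in steps over months and then passaging the survivors in a fixed dose. Of the 12 libraries in the series, the 6 without lycorine were used, 3 from K562 controls and 3 from K562/IM controls. The other 6 libraries, labelled K562+L and K562/IM+L for treatment with the alkaloid lycorine, entered only alternative fits and a few readings of levels that name them. Of the 19447 gene symbols in the deposited table, 13406 passed the filter on low counts and were tested, and 6041 were not. There was 1 resistant line from 1 selection, so that selection, drug exposure, long culture and chance differences between lines cannot be told apart. Whether imatinib was in the medium at harvest, whether the line was cloned, and whether the 3 libraries of a group came from separate cultures are not given in the sources used here, and p-values therefore measure only the spread between these libraries.

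BCR-ABL joins the 5' part of BCR to the ABL1 kinase, is always active, and signals through RAS and ERK, PI3K and AKT, and STAT5. Imatinib occupies the ATP pocket of ABL1. Resistance is commonly sorted into changes of the target (mutation or more copies of the fusion), export of the drug by transporters such as P-glycoprotein, the product of ABCB1, and signalling that bypasses the target, for example through SRC family kinases or receptor tyrosine kinases. K562 cells resemble early red cell and megakaryocyte precursors: they make embryonic and fetal globins and carry GATA1, the master transcription factor of both lineages. The genes are therefore described in that order, transporters and target first, then signalling, lineage, the cell surface, survival and growth.

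Total counts were 82779101 to 87381704 per library in K562 and 75935140 to 98445779 in K562/IM. Where 3 values stand against 3, the first are K562 libraries 1 to 3 and the second K562/IM libraries 1 to 3. Levels are given in CPM, counts divided by the normalized library size and scaled to 1e+06, and differences as log2 fold changes of K562/IM over K562. A gene was called where its adjusted p was under 0.05 and its log2 fold change was over 1 or under -1. By this rule 2566 genes, 19.1% of those tested, were called, 1857 (13.9%) higher and 709 (5.29%) lower in K562/IM. Below, background means these shares over all genes tested. The share called also differed with expression level, as given in the next paragraph, and no list was matched for level. At an adjusted p under 0.05 whatever the fold, 7661 genes (57.1%) passed, 4029 of them higher and 3632 lower. The median log2 fold change over all genes tested was 0.04. Rank correlations of all genes were 0.986 to 0.996 within a group and 0.936 to 0.955 between groups. The K562 libraries differed more among themselves than the K562/IM libraries did, with library 1 and library 3 the farthest apart, and results that rest on either are given without it below. Markers of the line were checked in both groups. GATA1 held 194, 242 and 269.9 CPM in K562 against 200.2, 199 and 203 in K562/IM, groups that overlapped, and MTAP and CDKN2A, whose loss from chromosome 9 is a known feature of K562 and which were chosen after their values were seen, were at 0 in every library and at up to 0.0613 CPM respectively. The neutrophil protease gene ELANE and the B cell gene MS4A1 were at 0 in all 6 libraries, and MPO, CD3E, CDH1 and PF4 stayed at 0.201 CPM or less. The libraries labelled K562/IM+L did not carry the pattern of those labelled K562/IM: scaled over all 12 libraries they held 0 CPM of CD44 and 0.490 to 1.06 CPM of ABCB1, against 149 to 155 and 21.9 to 25.8 CPM in K562/IM. CD44 was also at 0 in K562 and in K562+L, so that only the libraries labelled K562/IM held it. Labels were kept as deposited. Why these groups differ, and whether the K562/IM label, the K562/IM+L label or neither is at fault, cannot be told from the counts. K562/IM therefore means the libraries so labelled throughout. No value given below as a fold change or a call of the reported fit used the K562/IM+L libraries, though an alternative fit included them.

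The genes called higher were mostly weakly expressed in K562. Their median level was 0.940 CPM in K562 and 5.52 CPM in K562/IM, while the genes called lower had medians of 10.2 and 1.91 CPM. Among genes with a mean of 1 to 10 CPM, 32.2% were called higher and 9.58% lower. At 10 to 100 CPM the shares were 7.70% and 3.43%, and at 100 CPM or more 2.15% and 3.05%. Counts were 0 in every K562 library for 121 genes called higher and 0 in every K562/IM library for 48 genes called lower. The groups did not overlap for 2563 of the 2566 genes called, against 66.6% of all genes tested. Most genes named below were chosen among called genes whose groups do not overlap, so that groups lying apart is no finding for them.

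**Figure D1:**
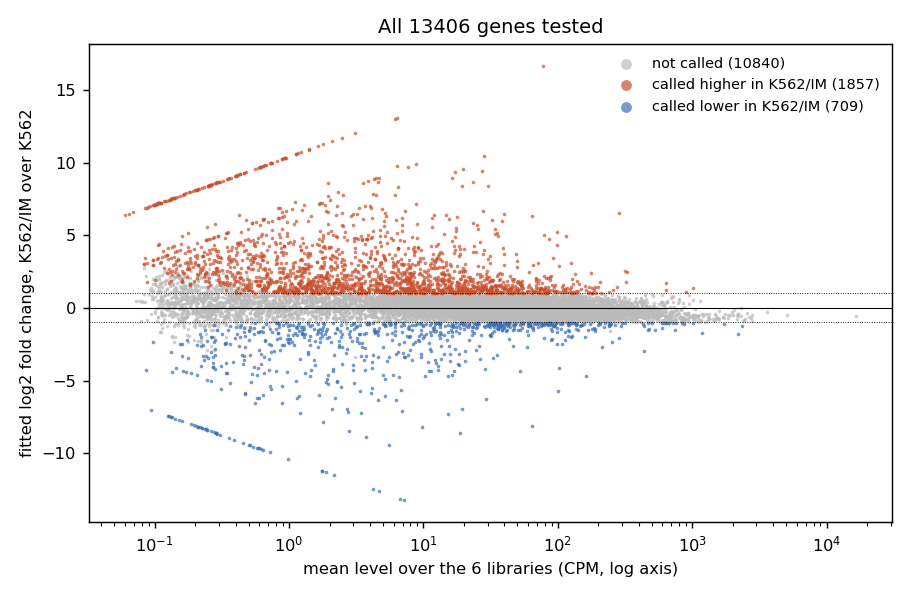
Fitted log2 fold change of K562/IM over K562 (vertical axis) against the mean level over the 6 libraries in CPM (horizontal log axis) for the 13406 genes tested, with 1857 called higher in orange, 709 called lower in blue and dotted lines at log2 fold changes of 1 and -1. Most called genes lie at low levels, and the straight edges at the upper and lower left are genes at 0 counts in every library of 1 group, whose fitted values depend on the prior count and are not read as folds.

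ABCB1 encodes P-glycoprotein, which pumps imatinib and many other drugs out of the cell. It lies on chromosome 7 from 87503633 to 87713323 of GRCh38. The K562 libraries held 1.72, 1.91 and 1.77 CPM of ABCB1 and the K562/IM libraries 23.5, 22.4 and 26.5. The groups did not overlap, and K562/IM stood 3.74 higher on the log2 scale with a standard error of 0.11 (adjusted p = 5.1e-07, from the quasi-likelihood fit of edgeR, adjusted after Benjamini and Hochberg). In bulk RNA a lower level in every cell and fewer cells that express a gene cannot be told apart. The other well-known exporter of imatinib went the other way. ABCG2, the breast cancer resistance protein, held 22.1, 22.9 and 22.1 CPM in K562 against 1.55, 2.37 and 1.77 in K562/IM, a difference of -3.56 on the log2 scale with a standard error of 0.17 (adjusted p = 3.1e-06). Of 21 drug transporters listed, 17 were tested, 2 were called higher and 1 lower, and their median log2 fold change was -0.04. The share called, 17.6%, was near the background of 19.1%. The third called gene was SLC22A18, an organic cation transporter, at 2.97 ± 0.509 CPM (SD, n = 3) in K562 and 16 ± 1.23 CPM (SD, n = 3) in K562/IM, a difference of 2.43 on the log2 scale with a standard error of 0.15. Among the 30 ABC transporter genes tested, 5 were called higher and 3 lower, 26.7% in all against 19.1% of all genes tested. Those higher included ABCB11, the bile salt exporter of liver, with a log2 fold change of 3.49, and ABCA8 with 2.21.

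The neighbours of ABCB1 on chromosome 7 moved both ways. Within 2 Mb on either side, 12 genes were tested with ABCB1 among them, 3 were called higher and 1 lower, and the median log2 fold change was 0.07. ABCB4, the adjoining transporter gene that exports phospholipid into bile, was lower, with 1.77, 1.64 and 1.62 CPM in K562 against 0.27, 0.288 and 0.372 in K562/IM. Beyond it CROT, of peroxisomal fatty acid oxidation, was higher (log2 fold change 2.07), as was ADAM22, a surface protein of neurons, on the other side (log2 fold change 1.79). Between them SLC25A40 and DBF4 had log2 fold changes of 0.03 and -0.71 and were not called, nor was SRI (log2 fold change -0.33), which is often amplified together with ABCB1 in drug-selected cells. RUNDC3B, which overlaps ABCB1, was at 0.873 and 0.95 CPM and was not called. Since the strand used in counting is not given, reads of these overlapping genes cannot be told apart.

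Shown next are the sequences around the annotated starts of ABCB1, of CD44, which was at 0 in K562, and of EPSTI1, which was at 0 in K562/IM. These genes were chosen because their levels differed widely between the lines. Whether the sequences have a part in that was not tested. Each is the RefSeq window of GRCh38.p14 from 250 bases before to 50 bases after the start, in the direction of transcription. Capitals mark GGGCGG (the GC box) and CCAAT (the CCAAT box) on either strand, so that CCGCCC and ATTGG are capitals too. Among all 35116 RefSeq windows of this length, 45% held a GC box and 34.6% a CCAAT box.
ABCB1, start inside the annotated gene, chr7:87600835-87601134, minus strand: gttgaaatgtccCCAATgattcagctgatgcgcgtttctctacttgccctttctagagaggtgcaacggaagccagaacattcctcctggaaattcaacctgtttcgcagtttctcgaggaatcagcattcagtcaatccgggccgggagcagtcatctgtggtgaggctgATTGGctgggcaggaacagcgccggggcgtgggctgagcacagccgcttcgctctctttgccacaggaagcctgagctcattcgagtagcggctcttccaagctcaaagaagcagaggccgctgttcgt
ABCB1, outermost start, chr7:87713246-87713545, minus strand: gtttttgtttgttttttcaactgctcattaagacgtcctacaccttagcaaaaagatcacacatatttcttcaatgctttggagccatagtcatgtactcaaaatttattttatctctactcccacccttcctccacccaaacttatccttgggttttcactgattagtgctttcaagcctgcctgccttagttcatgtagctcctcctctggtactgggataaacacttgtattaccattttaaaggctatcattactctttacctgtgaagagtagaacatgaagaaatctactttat
CD44, chr11:35138921-35139220, plus strand: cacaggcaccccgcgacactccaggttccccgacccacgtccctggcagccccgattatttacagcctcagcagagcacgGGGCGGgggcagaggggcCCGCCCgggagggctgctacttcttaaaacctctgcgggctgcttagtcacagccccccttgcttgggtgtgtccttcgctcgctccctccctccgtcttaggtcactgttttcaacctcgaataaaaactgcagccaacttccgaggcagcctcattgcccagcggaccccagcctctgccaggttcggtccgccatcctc
EPSTI1, chr13:42992192-42992491, minus strand: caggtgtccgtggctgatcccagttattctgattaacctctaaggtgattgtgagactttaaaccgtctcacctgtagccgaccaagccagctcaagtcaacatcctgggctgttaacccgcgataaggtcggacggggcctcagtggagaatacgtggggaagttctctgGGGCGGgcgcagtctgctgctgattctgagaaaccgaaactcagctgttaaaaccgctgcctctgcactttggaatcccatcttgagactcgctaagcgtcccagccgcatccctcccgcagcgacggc
The inner ABCB1 window held 2 CCAAT boxes and 16 CpG sites, and the outer window neither box and 1 CpG site. CD44 and EPSTI1 held 18 CpG sites each, with 2 GC boxes in CD44 and 1 in EPSTI1. The counts are per gene and do not say which start was used, and these matches describe the letters only.

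CD44, the hyaluronan receptor and Indian blood group antigen, separated the lines fully. It had 0 counts in all 3 K562 libraries and stood at 154, 153 and 159 CPM in K562/IM, at least 3927-fold higher when the K562 level is set at 3 counts in the smallest library. Other genes were at or near 0 in K562 and clearly counted in K562/IM. CALN1, MAGEB17 and ATP9A had 0 counts in every K562 library and stood at 12.7, 12.2 and 6.16 CPM in K562/IM, at least 322-fold, 309-fold and 156-fold higher. FYB1, an adaptor of immune cell receptors, held 0, 0 and 0.119 CPM in K562 against 56.8, 56.9 and 55.7 in K562/IM. TCN1, a vitamin B12 carrier of neutrophil granules, held 0.226, 0 and 0 against 49.96, 58.1 and 55 CPM, and ARAP3, a regulator of small GTPases, 0, 0.147 and 0 against 39.6, 37.1 and 42.1 CPM. VEPH1 had 3 counts over the 3 K562 libraries and 3557 over the K562/IM libraries, a ratio of levels of 1004 (95% counting interval 343 to 4872, which covers counting error only).

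Other genes were counted in every K562 library, some at low levels, and were much higher in K562/IM. ARHGEF6, an exchange factor for RAC and CDC42, held 1.61, 1.78 and 1.41 CPM in K562 against 126, 122 and 134 in K562/IM, a difference of 6.31 on the log2 scale with a standard error of 0.12. RHOBTB1, an atypical GTPase, rose from 0.942 ± 0.115 CPM (SD, n = 3) to 63.7 ± 0.884 CPM (SD, n = 3), and PHACTR2, an actin and phosphatase regulator, from 1.51 ± 0.133 CPM (SD, n = 3) to 67 ± 2.0 CPM (SD, n = 3). LAPTM5, a lysosomal membrane protein of blood cells, was singled out after its values were seen: it held 5.05, 5.75 and 7.13 CPM in K562 against 567, 539 and 592 in K562/IM, a difference of 6.57 on the log2 scale with a standard error of 0.15. CD53, a tetraspanin of white blood cells, held 9.37, 9.17 and 9.36 against 180.1, 184 and 194 CPM, a difference of 4.32 on the log2 scale with a standard error of 0.08 (adjusted p = 1.3e-07). None of these groups overlapped, which was a condition for naming most of these genes. Within K562/IM the libraries lay within 10% of their mean for each of the 5 genes.

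In the other direction CCND2, which encodes cyclin D2, held 132, 119.5 and 129.5 CPM in K562 against 0.638, 0.459 and 0.305 in K562/IM, a difference of -8.11 on the log2 scale with a standard error of 0.22 (adjusted p = 3.8e-07). DYSF, dysferlin, a membrane repair protein, fell from 196 ± 5.45 CPM (SD, n = 3) to 3.67 ± 0.463 CPM (SD, n = 3). ALDH1A2, which makes retinoic acid, held 59.3, 57.5 and 56.3 against 0.589, 0.79 and 0.811 CPM. SCN9A, a sodium channel of pain neurons, went from 37.1 to 0.0919 CPM, SLC6A19, an amino acid transporter, from 29.6 to 1.13, and EFHD1, a mitochondrial calcium sensor, from 48.4 to 4.32. Genes with firm levels in K562 and 0 counts in every K562/IM library included PAGE1 and MAGEA9, cancer-testis antigens, at 14.3 and 9.31 CPM in K562, EPSTI1, an interferon-responsive gene, at 13.3, and PPFIBP2, of the liprin scaffold family, at 8.42, which makes them at least 388-fold, 253-fold, 361-fold and 229-fold lower. MAGEA9 has a near-identical copy, MAGEA9B, so that its count is uncertain.

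In all, 85 genes were under 0.5 CPM in K562 and over 5 CPM in K562/IM, and 32 genes went the other way. The K562+L libraries, which the reported fit did not use, gave a further reading of these genes in the parental line. In K562+L, 77 of the 85 genes were again under 0.5 CPM, 8 were between 0.5 and 5 and 0 were over 5, and of the 32 genes, 19 were over 5 CPM and 13 between 0.5 and 5. Under the K562/IM+L label, 55 of those 85 genes were under 0.5 CPM and 1 was over 5, and 25 of the 32 genes were over 5.

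**Figure D2:**
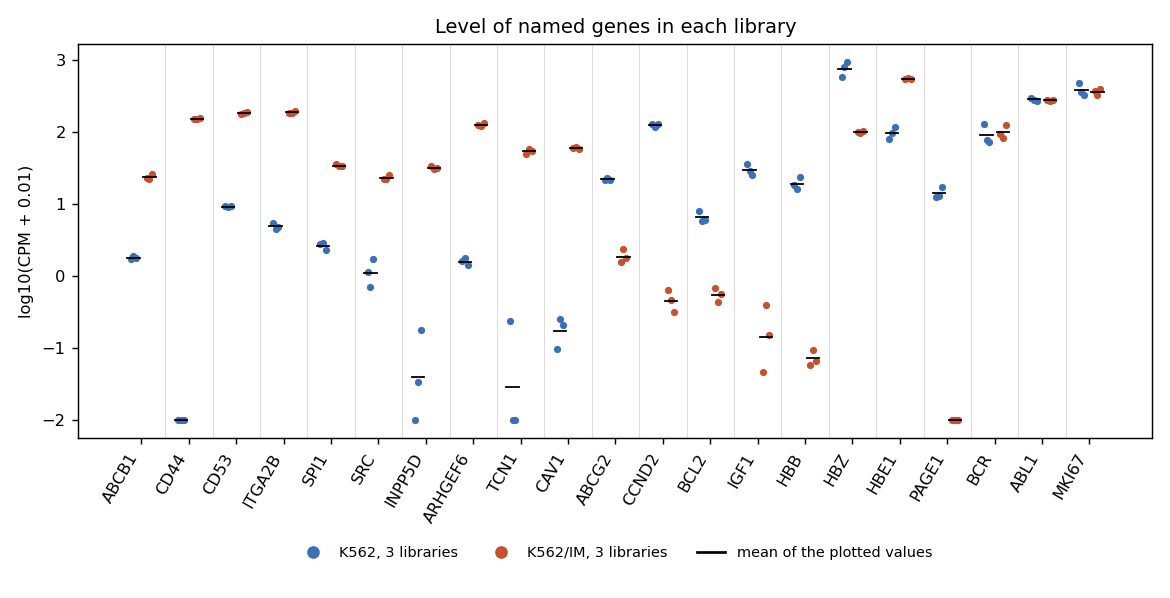
Level of 21 named genes in each library as log10(CPM + 0.01), with 3 K562 libraries in blue, 3 K562/IM libraries in orange and a black line at the mean of the plotted values; a point at -2 is a count of 0. The groups lie apart for ABCB1 through PAGE1 and overlap for BCR, ABL1 and MKI67.

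The target of the drug was not called. ABL1 held 304, 283 and 273 CPM in K562 against 281, 270.4 and 281 in K562/IM (log2 fold change -0.05 ± 0.07, standard error), and BCR held 131, 79.3 and 74.2 against 94.7, 83.9 and 128 (log2 fold change 0.11 ± 0.24, standard error). The groups overlapped for both genes, and the counts do not separate the fusion from the normal transcripts or show mutations. Within 2 Mb of ABL1, 47 genes were tested, with 3 called higher, 2 lower and a median of -0.09, and within 2 Mb of BCR 40 were tested, with 7 called higher, 3 lower and a median of -0.11. Kinases and phosphatases that act around BCR-ABL did differ. SRC, the founding member of its family, held 1.13, 0.697 and 1.75 CPM in K562 against 22.4, 22.8 and 25.5 in K562/IM (log2 fold change 4.31 ± 0.29, standard error, adjusted p = 1.8e-05). FRK, a SRC-related kinase, had 0 counts in every K562 library and 1.88 CPM in K562/IM, at least 47.5-fold higher. LYN, the SRC family kinase often linked to imatinib resistance, was not called, with 136, 119.9 and 110.4 against 105, 108 and 109 CPM (log2 fold change -0.18, adjusted p = 0.11).

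INPP5D encodes SHIP1, the lipid phosphatase of blood cells that removes a phosphate from PIP3. It held 0, 0.0245 and 0.171 CPM in K562 against 33.6, 31.3 and 32.2 in K562/IM, a difference of 8.96 on the log2 scale with a standard error of 0.49 (adjusted p = 6.6e-06), and the groups were far apart. BMX, a TEC family kinase, rose from 2.02 ± 0.368 CPM (SD, n = 3) to 32.2 ± 1.31 CPM (SD, n = 3). Of the 37 genes listed as fusion partners, SRC and TEC kinases, adaptors and phosphatases, 32 were tested, 8 were called higher and 1 lower, with a median log2 fold change of 0.34. The gene called lower, PTK2B, had a log2 fold change of -1.03, and was not called with upper-quartile normalization (-0.98).

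Receptor tyrosine kinases moved both ways. Of 50 listed, 32 were tested, 10 were called higher and 4 lower, and the median log2 fold change was 0.06. AXL, a receptor for GAS6 that has been tied to resistance to kinase inhibitors, held 1.31, 2.07 and 1.5 CPM in K562 against 30.6, 33.5 and 31.5 in K562/IM, a difference of 4.29 on the log2 scale with a standard error of 0.17 (adjusted p = 1.8e-06). EPHB6, an ephrin receptor without kinase activity, held 5.25, 5.78 and 7.22 against 167, 161 and 167 CPM. KIT, the stem cell factor receptor and itself a target of imatinib, rose from 2.54 ± 0.89 CPM (SD, n = 3) to 16.3 ± 0.534 CPM (SD, n = 3) (log2 fold change 2.68). The 4 lower genes were ERBB3 (log2 fold change -2.49), EGFR (-2.38, from 0.572 CPM), EPHA4 (-3.77, from 0.507 CPM) and ROR2 (-1.09). ROR2 fell just short of the threshold (-0.999) without K562/IM library 2, and the count of lower genes was 8 without K562 library 1.

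Genes that ERK signalling turns on, many of which feed back on it, held many members called higher. Of 29 listed, 28 were tested, 13 were called higher and 1 lower, against 13.9% and 5.29% of all genes, with a median log2 fold change of 0.86. PHLDA1, a pleckstrin homology protein, held 3.2, 3.61 and 3.32 CPM in K562 against 54.2, 54.4 and 50.3 in K562/IM, a difference of 3.97 on the log2 scale with a standard error of 0.09 (adjusted p = 2.9e-07). IER3, an immediate early gene, rose from 8.51 ± 0.429 CPM (SD, n = 3) to 51 ± 2.59 CPM (SD, n = 3). The sprouty genes, which restrain receptor signals to RAS, included SPRY4 at 13.8 ± 1.92 CPM (SD, n = 3) and 51.8 ± 1.51 CPM (SD, n = 3) and SPRY2 at 11.8 ± 0.832 CPM (SD, n = 3) and 30.3 ± 1.99 CPM (SD, n = 3). DUSP6, the ERK phosphatase, was low in both groups, with 0.0881, 0.501 and 0.158 CPM in K562 against 1.34, 1.16 and 1.77 in K562/IM. Cyclin D1, from CCND1, rose from 20.9 ± 1.94 CPM (SD, n = 3) to 64.1 ± 2.45 CPM (SD, n = 3), the reverse of cyclin D2. In the RAS and MAP kinase cascade itself 7 of 38 genes tested were called higher and 2 lower (1 without K562 library 3), with a median of 0.22, and in PI3K, AKT and mTOR signalling 5 of 34 were called higher and 1 lower, with a median of 0.12 (0.02 without K562 library 3), shares near the background.

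STAT5 targets did not move as 1 block. Of 14 tested, 3 were called higher and 2 lower, with a median log2 fold change of 0.02. IGF1 held 36.3, 29.4 and 25.2 CPM in K562 against 0.0368, 0.384 and 0.143 in K562/IM, a difference of -7.29 on the log2 scale with a standard error of 0.48 (adjusted p = 1.5e-05), and its signalling partner IRS1, the insulin receptor substrate, fell from 9.96 ± 1.84 CPM (SD, n = 3) to 0.34 ± 0.122 CPM (SD, n = 3). Among JAKs, STATs and cytokine receptors 6 of 29 genes tested were called higher and 0 lower, with a median of 0.54, or 0.32 without K562/IM library 3. They included OSMR, the oncostatin M receptor, from 5.82 to 25.5 CPM, IL10RA, from 5.28 to 20.3, and CSF2RB, the common beta chain for IL-3 and GM-CSF, at 0, 0 and 0.0395 CPM in K562 against 1.07, 1.21 and 0.534 in K562/IM.

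Many globin and red cell genes were lower in K562/IM. All 9 globin genes tested were called, 8 lower and 1 higher. HBG2 and HBG1, the fetal gamma globins, held 2700.2, 3532 and 4001 against 951, 1021 and 1036 CPM for HBG2 and 1493, 1675 and 2285 against 499, 636 and 528 CPM for HBG1. HBZ, the embryonic zeta chain, held 580.2, 805 and 952 against 101, 97.4 and 103 CPM, a difference of -2.96 on the log2 scale with a standard error of 0.17 (adjusted p = 8.7e-06). The alpha globins HBA1 and HBA2 had log2 fold changes of -1.53 and -1.52. HBB, adult beta globin, held 18.3, 16.4 and 23.8 CPM in K562 against 0.0491, 0.0854 and 0.0573 in K562/IM, a difference of -8.22 on the log2 scale with a standard error of 0.26 (adjusted p = 5.6e-07). Against all of these HBE1, the embryonic epsilon chain in the same cluster on chromosome 11 as HBB, held 81.9, 99.4 and 119 against 552, 560.4 and 559 CPM and was higher by 2.48 on the log2 scale with a standard error of 0.13 (adjusted p = 5.9e-06). HBG1 and HBG2, and HBA1 and HBA2, are near-identical pairs whose counts could be split either way, so that the pair and not the single gene is the sure unit.

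Haem synthesis followed the globins in part. ALAS2, the first and erythroid-specific enzyme, had a log2 fold change of -1.31. Of 9 haem enzymes tested 2 were called, both lower, and AHSP, the chaperone of alpha globin, was also lower (-1.08). Of 28 red cell membrane and blood group genes tested, 10 were called lower and 2 higher, 1 of them CD44. SLC4A1, the band 3 anion exchanger, held 3.7, 4.47 and 5.19 CPM in K562 against 0.0982, 0.0854 and 0.191 in K562/IM. The glycophorins GYPB and GYPC fell to 13.6 and 93.4 CPM from 49.5 and 287. BCAM, the Lutheran antigen, had a log2 fold change of -2.23. All groups named in this and the preceding comparison of globins were apart, which was a condition for naming most of these genes. The transferrin receptor gene TFRC had a log2 fold change of -0.93 and was not called.

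Transcription factors of the lineage moved both ways. Of 25 erythroid and stem cell factors tested, 5 were called higher and 2 lower, with a median log2 fold change of 0.08. LMO2, a bridging protein of the GATA1 and TAL1 complex, held 157, 158 and 182 CPM in K562 against 32.1, 27.6 and 28.7 in K562/IM, a difference of -2.49 on the log2 scale with a standard error of 0.10. SOX6, which silences embryonic epsilon globin, held 27.1, 17.7 and 16 against 1.23, 1.43 and 1.83 CPM (log2 fold change -3.75 ± 0.25, standard error). KLF1, the activator of adult beta globin, had a log2 fold change of -0.67 and was not called. Higher were RUNX2, from 2.56 to 19.8 CPM, and ETV6, from 10.3 to 29.3. The count of lower factors was 4 with DESeq2, without the low-count filter, and without any 1 of the K562/IM libraries.

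Megakaryocyte and platelet genes were split. Of 22 tested, 9 were called higher and 4 lower, with a median log2 fold change of 0.67, or 0.25 without K562/IM library 3. ITGA2B, the alpha IIb chain of the fibrinogen receptor of platelets, held 5.49, 4.46 and 4.9 CPM in K562 against 188, 184 and 199.6 in K562/IM (log2 fold change 5.27 ± 0.11, standard error, adjusted p = 1.5e-07). Its partner ITGB3 held 0.604, 0.452 and 0.264 against 11.3, 10.02 and 13.1 CPM, and P2RX1, the ATP receptor of platelets, 2.03, 1.49 and 2.28 against 64.9, 63.3 and 70.7. GP1BB, of the von Willebrand factor receptor, went down, with 286, 429.7 and 398 CPM in K562 against 61.4, 62.9 and 46.4 in K562/IM, and THBS1 (thrombospondin) and P2RY1 (an ADP receptor) had log2 fold changes of -1.99 and -1.84. PF4, platelet factor 4, was at or near 0 in every library.

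Genes of other blood lineages were higher or not called, with few lower. Of 33 granulocyte and monocyte genes listed, 20 were tested, 10 were called higher and 0 lower. SPI1 encodes PU.1, the transcription factor that drives myeloid fate and opposes GATA1, and it held 2.77, 2.85 and 2.35 CPM in K562 against 36, 33.8 and 33.8 in K562/IM (log2 fold change 3.70 ± 0.11, standard error, adjusted p = 4.8e-07). AIF1 held 0, 0.0489 and 0 against 8.86, 8.23 and 8.54 CPM, and ITGAM, the CD11b integrin, 0.101, 0.147 and 0.185 against 3.17, 2.67 and 3.45. FCGR2A, an IgG receptor, rose from 24.1 ± 3.96 CPM (SD, n = 3) to 181 ± 1.74 CPM (SD, n = 3). Of 8 basophil and mast cell genes tested, 5 were called higher and 1 lower: HDC, which makes histamine, held 0.0629, 0 and 0 against 8.97, 9.64 and 8.71 CPM, while PRG2, eosinophil major basic protein, fell from 24.7 ± 6.73 CPM (SD, n = 3) to 2.2 ± 0.357 CPM (SD, n = 3). Of 9 lymphocyte genes tested among 27 listed, 6 were called higher and 0 lower, among them CD3D, a T cell receptor subunit, with 2.14, 1.69 and 2.78 against 21.8, 22.3 and 23.5 CPM, and PRF1, perforin, with 0.0629, 0.0489 and 0.0659 against 8.47, 7.69 and 7.5. CD3E and MS4A1, the defining T and B cell markers, stayed at 0.0382 to 0.201 CPM and at 0, and MPO, of neutrophil precursors, at 0.0534 or less. Many of these genes passed the filter only through the group in which they were high, so that the counts over the genes tested describe those genes and not the lineages.

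**Figure D3:**
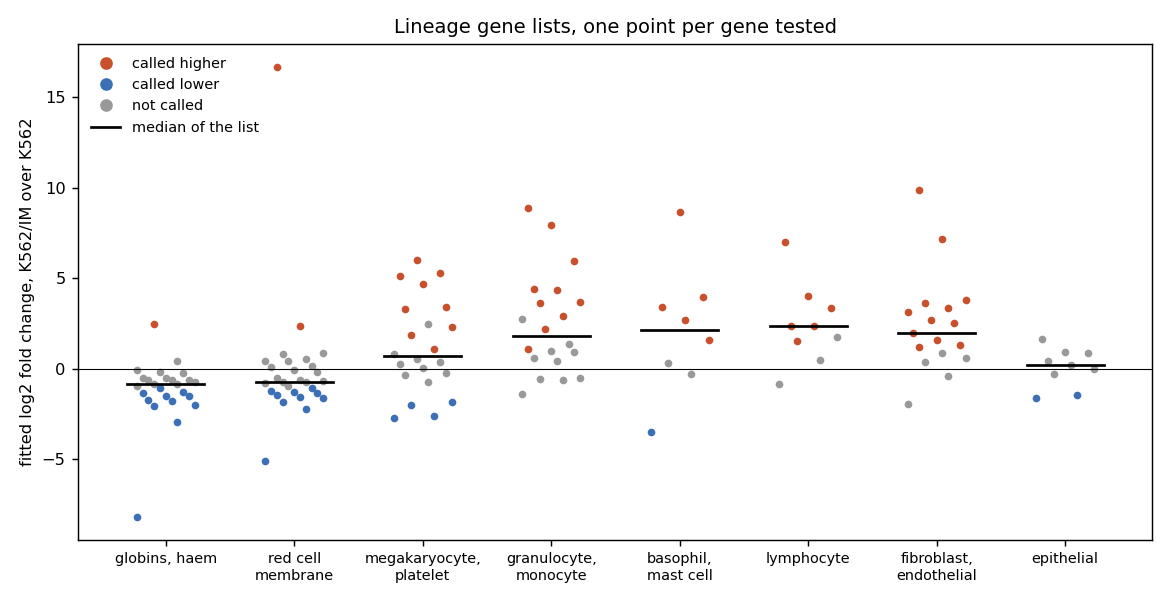
Fitted log2 fold change of K562/IM over K562 for each gene tested in 8 lineage lists, with genes called higher in orange, called lower in blue and not called in grey, and a black line at the median of each list. Globin and red cell genes lie mostly below 0 apart from HBE1 and CD44 (the second, the topmost point, was at 0 in K562), and the granulocyte, lymphocyte and fibroblast lists lie mostly above 0.

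Of 44 collagen genes listed, 26 were tested, 17 were called higher and 4 lower, with a median log2 fold change of 2.26, or 2.17 with the 2 genes that were at 0 in K562 set at their lower bound. The median was 0.71 with DESeq2, 1.69 without K562 library 3 and 1.72 without K562 library 1. COL1A2 had 0.0503, 0 and 0 CPM in K562 against 15.8, 18.5 and 18.4 in K562/IM. COL4A5, of basement membranes, held 3.38, 2.07 and 3.49 against 43.9, 41.6 and 45.1 CPM, and COL6A3 0.214, 0.11 and 0.0527 against 10.5, 9.54 and 11.4. COL15A1 ran against them, with 27.2, 24.8 and 20.9 CPM in K562 against 1.25, 1.16 and 1.29 in K562/IM. Of 17 fibroblast and endothelial genes tested, 12 were called higher and 0 lower, and 5 of these are counted in the collagen or kinase lists as well. CAV1, caveolin, chosen after its values were seen, held 0.0881, 0.245 and 0.198 against 60.9, 61.9 and 58.5 CPM. ACTA2, smooth muscle actin, rose from 2.24 ± 0.577 CPM (SD, n = 3) to 31.4 ± 1.3 CPM (SD, n = 3). Several collagen, fibroblast and integrin genes passed the filter only through K562/IM, so that these counts describe the genes tested and not the whole lists.

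Of 19 integrin genes tested, 7 were called higher and 1 lower, and the lower one, ITGA9, was not called without K562 library 3, without K562/IM library 1 or without K562/IM library 3. Tetraspanins, which organise integrins and other receptors in the membrane, were called higher for 7 and lower for 2 of 21 genes tested. TSPAN5 held 0.428, 0.355 and 0.514 CPM in K562 against 29.5, 29.5 and 31.9 in K562/IM, and TSPAN13 fell from 256 ± 6.02 CPM (SD, n = 3) to 63.2 ± 5.34 CPM (SD, n = 3). CD52, a short surface antigen of lymphocytes, held 1.14, 0.807 and 1.58 against 24, 24.6 and 25 CPM, and IL1RAP, the IL-1 receptor partner found on leukemic stem cells, 2.99, 2.32 and 2.02 against 22.2, 20.7 and 23.5. Epithelial genes were called lower for EPCAM, with 126, 132 and 135 against 49.1, 49.2 and 43.9 CPM, and MUC1 (log2 fold change -1.63), 2 of 9 tested, with 0 called higher. The list did not move as 1 block. At an adjusted p under 0.05 whatever the fold 2 were higher and 2 lower, and the median log2 fold change was 0.22. The epithelial marker KRT19 held 61.1, 79.4 and 89.1 against 144, 142 and 152 CPM, with a log2 fold change of 0.93, and was not called. TLN1 (talin, which links integrins to actin) and FLNA (filamin, which crosslinks actin), both chosen after their values were seen, were called higher, TLN1 at 300.2 ± 14.1 CPM (SD, n = 3) and 971 ± 73.6 CPM (SD, n = 3) and FLNA at 559 ± 8.77 CPM (SD, n = 3) and 1459 ± 129 CPM (SD, n = 3). S100 proteins, small calcium binders, were called higher for 6 and lower for 1 of 11 genes tested, with S100A16 from 2.13 to 35.3 CPM and S100P from 11.1 to 0.0142.

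The survival genes BCL2 and BCL2L1 changed in opposite directions. BCL2, which blocks apoptosis at the mitochondrion, held 8.03, 5.94 and 5.97 CPM in K562 against 0.675, 0.427 and 0.563 in K562/IM, a difference of -3.58 on the log2 scale with a standard error of 0.24 (adjusted p = 1.6e-05). BCL2L1, which encodes the related BCL-XL, held 112, 119.6 and 128 against 244, 243 and 244 CPM, a log2 fold change of 1.02 that lay just past the threshold and was 0.94, not called, without library 1 of K562. BAX, an effector of apoptosis, held 41.3, 48.2 and 60.6 against 47.1, 49.3 and 41.5 CPM. The groups overlapped and the gene was not called. Of the 14 BCL2 family genes tested, 2 were called higher and 1 lower, with 1 higher without K562 library 1 and 4 without K562 library 2. The share called, 21.4%, was near the background of 19.1%.

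Proliferation genes were not called higher or lower beyond 1 member. MKI67 held 489.7, 362 and 333 CPM in K562 against 381, 333 and 394 in K562/IM, and the groups overlapped. Of 34 S phase genes tested 0 were called higher and 1 lower, their median being -0.25, and of 34 G2 and M phase genes 0 were called, with a median of -0.09. At an adjusted p under 0.05 whatever the fold 18 S phase genes were lower and 0 higher, and 13 G2 and M phase genes were lower and 3 higher. DESeq2 called 0 G2 and M phase genes higher and 0 lower, and at an unadjusted p under 0.05 in edgeR 3 were higher and 13 lower. Regulators of entry into the cycle did differ. CDKN1A, which encodes the inhibitor p21, held 12.2, 13.7 and 11.7 against 58.6, 58.8 and 55.5 CPM (log2 fold change 2.20 ± 0.09, standard error, adjusted p = 1.7e-06), and CDKN1C, p57, 29, 28.1 and 27.5 against 8.69, 9.65 and 7.79 (log2 fold change -1.69).

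The study asked whether autophagy differs between these lines, and few of the listed transcripts of its machinery were called. Among all genes tested 19.1% were called, but that share differed with level. The median level of the autophagy list lay between 51.2 and 60.6 CPM in the 6 libraries. Genes with a mean of 10 to 100 CPM were called higher for 7.70% and lower for 3.43%. Of 56 autophagy genes listed, 53 were tested, 0 were called higher and 1 lower, and the median log2 fold change was 0.08. At an adjusted p under 0.05 whatever the fold, 12 were higher and 7 lower. At an unadjusted p under 0.05 14 were higher and 9 lower, and DESeq2 called 0 and 1. BECN1, the core of the class III PI3K complex that starts autophagosomes, held 63.5, 61.2 and 66.5 CPM in K562 against 79, 75.2 and 79.6 in K562/IM, a difference of 0.29 on the log2 scale with a standard error of 0.07 (adjusted p = 0.0084). SQSTM1, the cargo receptor p62, held 122.7, 138 and 147 against 174, 177 and 166 CPM (log2 fold change 0.34 ± 0.08, standard error, adjusted p = 0.0097). MAP1LC3B, the LC3 of autophagosome membranes, held 213, 207 and 218 against 213, 231 and 207, and ATG5, of the conjugation system, 39.5, 43.5 and 43.3 against 48.1, 47.7 and 45.2, with log2 fold changes of 0.03 and 0.16. Groups lay apart for BECN1, SQSTM1 and ATG5 and overlapped for MAP1LC3B. The 1 listed gene called was BNIP3, a receptor for mitochondria, with 96.3, 90.03 and 94.5 CPM in K562 against 35.3, 39.7 and 34.5 in K562/IM. ATG16L2, a paralogue of the autophagy gene ATG16L1, was not on the list and was chosen after its values were seen. It was called higher, with 0.315, 0.44 and 0.237 CPM in K562 against 14.1, 12.9 and 13.6 in K562/IM. RNA does not measure autophagic flux.

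Genes that present antigen to T cells changed unevenly. K562 is known for very low HLA class I, and HLA-B held 0.0252, 0.281 and 0.105 CPM in K562 against 2.49, 2.53 and 2.58 in K562/IM, HLA-C 1.01, 1.21 and 0.936 against 7.94, 8.17 and 9.67, and HLA-E 27.6, 32.6 and 32.9 against 124, 129 and 139.8. NLRC5, the activator of class I genes, had 0.101, 0 and 0.105 against 5.73, 5.88 and 5.53 CPM. In the same pathway PSMB9, a subunit of the immunoproteasome, fell from 14 ± 3.19 CPM (SD, n = 3) to 1.49 ± 0.225 CPM (SD, n = 3). Over class I and class II genes 5 of 20 tested were called higher and 3 lower. Ligands of natural killer cells, which normally attack K562, were called for 0 of 12 genes tested, while edgeR's unadjusted p was under 0.05 for 4 higher and 1 lower, and DESeq2 called 0 higher and 0 lower. Interferon response genes were called higher for 6 and lower for 3 of 42 tested, near the background, with TRIM22 at 0.101, 0.0489 and 0 against 3.58, 5.17 and 4.5 CPM and IFIH1, an RNA sensor, at 11.4, 12.2 and 10.9 against 1.45, 1.28 and 1.38.

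Cancer-testis antigens, genes of the germ line that many tumours express, were called lower for 17 and higher for 3 of the 38 tested, with a median log2 fold change of -1.24, against 5.29% of all genes called lower. With a filter of 1 CPM on the mean, 5 were called lower and the median was -0.41, and without K562 library 3 the median was -0.78. MAGEB1 went from 1.44 to 0.0254 CPM and MAGEB2 from 1.02 to 0.0654, while MAGEB17 and MAGEA4 (0.932 to 4.59 CPM) were higher. Of the 102 listed, 64 were not tested, and many GAGE, SSX, XAGE and MAGEA copies are near-identical, so that these counts are of symbols and not of independent genes.

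Among signalling genes of development, NOTCH receptors were higher. NOTCH1 held 13, 13.4 and 11.3 CPM in K562 against 65.6, 59.5 and 68.8 in K562/IM, NOTCH3 0.755, 1.42 and 0.778 against 17.5, 16 and 17.8, and their target HEY1 1.91, 2.78 and 2.19 against 22.2, 21.1 and 21.3. Of 19 NOTCH pathway genes tested 7 were called higher and 3 lower, the lower ones including the ligand DLL4 (log2 fold change -1.49) and the glycosyltransferase MFNG (-3.80). TGF-beta and BMP genes were called higher for 11 and lower for 2 of 38 tested. BMP7 rose from 1.35 ± 0.257 CPM (SD, n = 3) to 11 ± 0.57 CPM (SD, n = 3), and the BMP-induced inhibitor ID2 from 2.9 ± 0.375 CPM (SD, n = 3) to 26.3 ± 1.22 CPM (SD, n = 3). JUN, an AP-1 factor, held 32.1, 31.2 and 27.4 against 118, 127 and 97.7 CPM, and MAF, of the same leucine zipper class, 4.2, 4.41 and 3.72 against 0, 0 and 0.0859.

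Of 155 ion channel genes listed, 73 were tested, 26 were called higher and 8 lower, and the median was 0.79 on the log2 scale. Of those tested 5 were at 0 in K562 and 2 at 0 in K562/IM, and so passed the filter through 1 group only. The count describes the genes tested and not the whole list, and among all genes of 1 to 10 CPM 32.2% were called higher. Solute carriers were called higher for 42 and lower for 17 of 228 tested, near the background, with a median of 0.09. Of drug and aldehyde metabolism genes 7 of 17 tested were called higher and 1 lower. NNMT, which methylates nicotinamide, held 0.503, 0.941 and 1.0 against 28.5, 28.1 and 26 CPM, and GSTM3, a glutathione transferase, 3.08, 3.74 and 4.11 against 15.5, 16.7 and 17. AKR1C3, a reductase under NRF2 control, went down, from 34 ± 3.87 CPM (SD, n = 3) to 2.35 ± 0.223 CPM (SD, n = 3). Zinc finger ZNF genes were called higher for 64 and lower for 17 of 414 tested, 19.6% in all and near the background of 19.1%. On the adjusted p alone 182 were higher and 42 lower, with a median of 0.36 on the log2 scale.

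Ribosomal protein genes were lower as a group by a modest amount. Of 83 cytosolic ribosomal protein genes tested, 82 were lower at an adjusted p under 0.05 whatever the fold, against 57.1% of all genes in either direction, and 15 passed the fold threshold, with a median log2 fold change of -0.79. RPS12 held 939.6, 979 and 1391 CPM in K562 against 380.5, 412 and 363 in K562/IM. Summed over the list, K562 libraries held 83098 to 115680 CPM and K562/IM libraries 55709 to 59494. Mitochondrial ribosomal proteins (0 higher and 9 lower of 78, median -0.63), nuclear subunits of oxidative phosphorylation (0 and 9 of 80, median -0.70), proteasome subunits (0 and 2 of 37, median -0.61) and cholesterol synthesis (0 and 1 of 25, median -0.57) had negative medians as well. The number called depended on single libraries: for cytosolic ribosomal proteins it was 4 without K562 library 3, 37 without K562 library 1 and 9 without K562/IM library 3, while the median stayed between -0.66 and -0.94 over every alternative run. For mitochondrial ribosomal proteins it was 5 without K562 library 3 and 14 without K562 library 1, and for oxidative phosphorylation 4 and 22, with 15 without K562 library 2. For proteasome subunits it was 4 without K562 library 1.

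Transcript length moved with these lists. Genes of at least 10 CPM had a median log2 fold change of -0.19 where the transcript was under 750 bases, -0.22 at 750 to 1500, -0.04 at 1500 to 3000, 0.14 at 3000 to 6000 and 0.36 over 6000 bases. The K562 libraries were themselves spread along this axis. For transcripts over 6000 bases their median deviations from the mean of the 6 libraries were 0.06, -0.19 and -0.37 in log2(CPM + 0.5), and those of the K562/IM libraries 0.20, 0.14 and 0.20. Cytosolic ribosomal transcripts had a median length of 687 bases, oxidative phosphorylation 708 and ZNF genes 2063. The part of transcript length in the results on ribosomal, oxidative phosphorylation, proteasome and ZNF genes, TLN1 and FLNA was not tested.

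**Figure D4:**
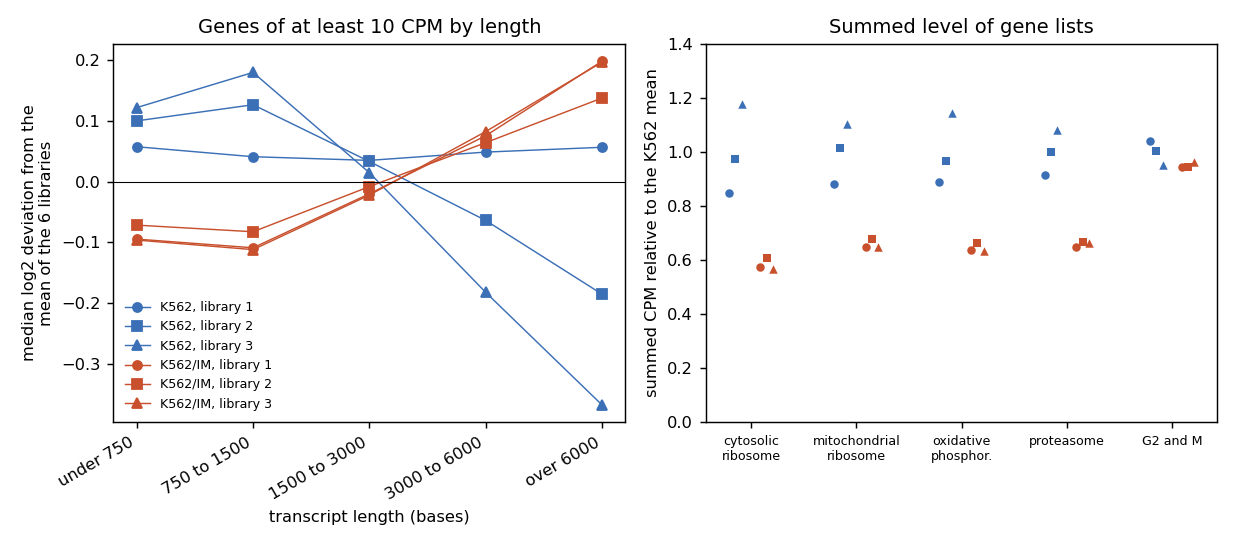
Left, median log2 deviation of each library from the mean of the 6 libraries for genes of at least 10 CPM in 5 classes of transcript length in bases; right, summed CPM of 5 gene lists in each library relative to the K562 mean, with K562 in blue, K562/IM in orange and circles, squares and triangles for libraries 1, 2 and 3. The K562 libraries fan out from 0.06 to -0.37 over 6000 bases while the K562/IM libraries lie together, and all 3 K562/IM libraries lie under the K562 libraries for the first 4 lists.

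**Figure D5:**
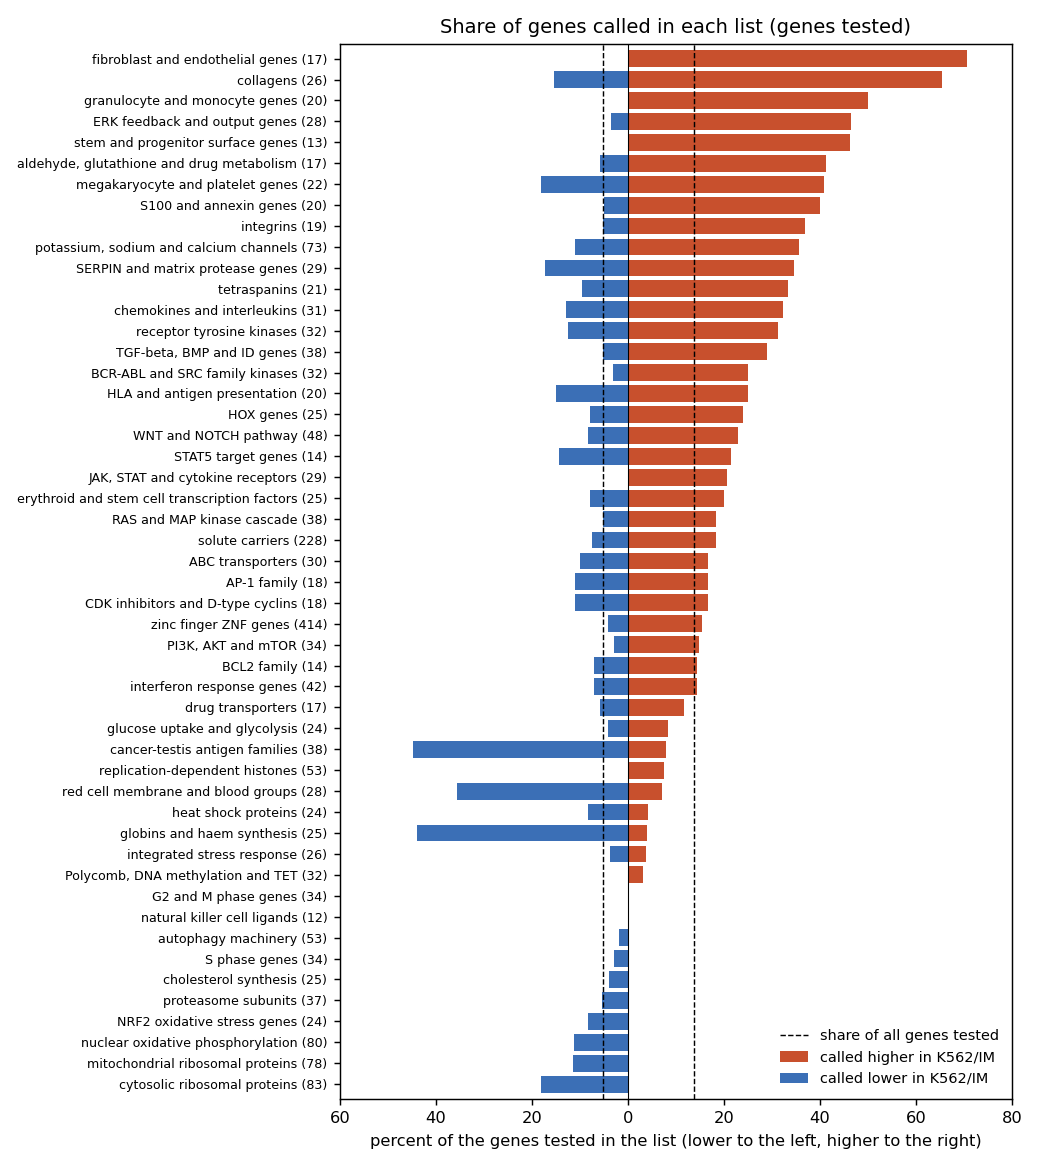
Percent of the genes tested in each list with at least 12 such genes that were called higher (orange, to the right) or lower (blue, to the left) in K562/IM, with the number tested in parentheses and dashed lines at 13.9% and 5.29%, the shares among all 13406 genes tested. The fibroblast and collagen lists reach farthest to the right, the cancer-testis, globin and red cell lists farthest to the left, and the G2 and M list and the natural killer ligand list have no bar.

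Some genes called in the same direction were neighbours. There were 29 runs of at least 4 adjacent tested genes that were all called higher and 3 that were all called lower. The longest, of 8 genes on chromosome 2 of GRCh38 from 68284171 to 69387254, ran from CNRIP1 through PLEK, FBXO48, APLF, ARHGAP25, BMP10 and ANTXR1 to GFPT1. CNRIP1 held 0.302, 0.342 and 0.105 CPM in K562 against 14, 13.6 and 13.1 in K562/IM, and APLF 0.113, 0.391 and 0.303 against 7.86, 7.29 and 8.36. PLEK was not called without K562 library 1, K562 library 2 or K562/IM library 1, nor was GFPT1 without K562 library 3 or K562/IM library 2. On chromosome 1 from 160400586 to 160754821 the SLAM family receptors of blood cells lay in a run of 5, with SLAMF1 at 0.0602 and 1.87 CPM, and on chromosome 11 from 5596109 to 6211132 a run of 6 held TRIM6, TRIM34, TRIM5 and TRIM22. In that run TRIM5 was not called without K562 library 2 (log2 fold change 0.94) or without K562/IM library 1 (0.99), and both other members, C11orf42 and OR56B4, were not called under some alternatives either, C11orf42 with DESeq2 among them, so that the run is then shorter. The runs called lower were the beta globin cluster (HBB, HBD, HBG1 and HBG2) and the alpha globin cluster (HBZ, HBA2, HBA1 and HBQ1), both named above, and 5 genes on chromosome 2 from 161416094 to 165392310 that included IFIH1 and SCN2A.

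Whole chromosomes had medians near 0. The median log2 fold change of genes of at least 10 CPM lay between -0.20 (chromosome 22) and 0.01 in every chromosome. In 222 blocks of 40 such genes in order along the chromosomes, medians ran from -0.42 to 0.55, and 8 lay beyond 0.3 in either direction. The highest block was on chromosome 19 from 51345169 to 55180441, where 32 of the 40 genes were above 0, and the lowest on chromosome 20 from 51386957 to 63289793, where 7 were. Copy number was not measured.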

How the data were processed

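The deposited table held whole-number read counts per gene symbol for 12 polyA-selected libraries, 6 of them analysed here. The submitters' processing notes name FastQC, STAR, StringTie, DESeq2 and hg38, and how the authors counted, with which annotation and strand setting, is not given in the sources used here. Of 11660 values from 1 to 25 in the 6 libraries, 67.2% were a multiple of 4 or 1 above one, where 52% of the whole numbers from 1 to 25 are, and why is not given. An alternative divides all counts by 4.

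Genes were filtered with filterByExpr (minimum count 10), scaled with TMM and compared by edgeR's quasi-likelihood test (edgeR 4.0.16, R 4.3.3) on the 3 K562 and 3 K562/IM libraries without covariates, with Benjamini-Hochberg adjustment over all genes tested. CPM use the TMM library sizes. Standard errors were worked back from the same test, as the absolute log2 fold change divided by the square root of its F statistic. Alternatives used DESeq2 1.42.0, other scalings and filters, more libraries in the fit, a test against the fold threshold (glmTreat), a replicate block and leaving out each library. The script was tested on simulated data with 200 changed genes. An exact permutation test of 3 against 3 cannot go below p = 0.1 and was not used. Positions are from GENCODE 29, which matched 19291 of 19447 symbols, and promoter windows from RefSeq GRCh38.p14. A comparison of promoter sequences between called and other genes was void, since under 80% of the called genes had a window (76.6% of those higher and 76.7% of those lower). Intervals and floors (3 counts in the smallest library of the group) cover counting error only.

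The members and the 55 gene lists were chosen with earlier results of these data known, and p-values are given over all genes only. Named genes were the blotted proteins with MKI67, BCR and ABL1, called drug transporters, genes within 2 Mb of ABCB1, BCR and ABL1, and runs of at least 4 neighbours. Further genes were taken in each direction only from called genes whose groups did not overlap. These were the 10 largest fold changes at 5 CPM or more, the 5 smallest p-values, and up to 4 members per list at 1 CPM or more. Of a list without such a member, the gene with the smallest p in each direction was named. Outside this rule, and chosen after their values were seen, were AHSP, ALAS2, ATG16L2, CAV1, CD3E, CD69, CDH1, CDKN2A, COL4A5, COL6A3, CSF2RB, DUSP6, EGFR, ELANE, EPHA4, FCGR2A, FLNA, GATA1, ITGA9, KLF1, KRT19, LAPTM5, LYN, MAGEB1, MAGEB2, MFNG, MPO, MS4A1, MTAP, NOTCH1, PF4, SPRY2, SPRY4, TFRC and TLN1. Some genes are not reported here.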

Additional observations from a re-analysis of the deposited data

How the results depend on the processing

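Counts of genes called stayed within 1.5 times the reported 2566 (1857 higher and 709 lower) under all alternatives run except glmTreat, which tests against the fold threshold itself and called 1546, 1152 higher and 394 lower, by construction fewer. Leaving out 1 library gave 2392 to 2884 called, 1711 to 1986 higher and 645 to 898 lower. DESeq2 called 2776, upper-quartile scaling 2600, and a filter of 1 CPM on the mean 1870. Of 388 named genes called, 346 stayed called in every alternative other than glmTreat in which they were tested, and 297 under glmTreat, and no called result reversed its direction. With a replicate block 2433 genes were called, but correlations of same-numbered libraries were -0.03, 0.07 and -0.10, so that the libraries share only a number. The median over all genes ran from 0.02 (RLE) to 0.09 (upper-quartile). The medians of the drug transporter, receptor tyrosine kinase, STAT5 target, erythroid factor, epithelial, HLA, AP-1 and cadherin lists took either sign among the alternatives. Depth limits genes near the floor of 0.0395 CPM in K562 and 0.0368 CPM in K562/IM, where a count of 0 does not show absence.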

Other observations

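Genes listed as surface genes of stem and progenitor cells were called higher for 6 and lower for 0 of 13 tested. Those called higher include CD37, CD52 and CD53, which are antigens of white blood cells. The count therefore does not show a stem or progenitor state. CD37, a tetraspanin of B cells, held 1.78 ± 0.366 CPM (SD, n = 3) in K562 and 17.2 ± 1.96 CPM (SD, n = 3) in K562/IM, and CD69, an early activation antigen, 43.3 ± 6.63 CPM (SD, n = 3) and 118 ± 4.09 CPM (SD, n = 3). Serpins and matrix proteases moved both ways, with 10 higher and 5 lower of 29 tested among 81 listed. ADAMTS14, which trims collagen propeptides, held 14.7, 15.1 and 14.9 CPM in K562 against 127, 117 and 135 in K562/IM, and SERPING1, the C1 inhibitor of complement, 0.264, 0 and 0.303 against 13.2, 13.6 and 14.1 CPM. MMP15, a membrane-type metalloprotease, fell from 101 ± 8.51 CPM (SD, n = 3) to 15.5 ± 1.17 CPM (SD, n = 3), and SERPINE2, a thrombin inhibitor, from 7.42 ± 0.164 CPM (SD, n = 3) to 0.0142 ± 0.0247 CPM (SD, n = 3). In each of these 6 genes the groups lay apart, which was a condition for naming most of them. Chemokine and interleukin genes were called higher for 10 and lower for 4 of 31 tested, among them the IL-1 receptor IL1R1, at 9.56 CPM in K562 and 0.384 in K562/IM, and 4 were called higher with all counts divided by 4. HOX genes were called higher for 6 and lower for 2 of 25 tested. Of 89 cadherins and protocadherins listed 10 were tested, 3 were called higher (5 without K562 library 3) and 3 lower. CDH12 stood at 0.0839 and 9.73 CPM and PCDH10 at 6.77 and 0.0454. The counts for the protease, chemokine and cadherin lists describe the genes tested and not the whole lists.

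Stress and metabolic lists held smaller shares of called genes than the 19.1% over all genes tested, but they were not matched for level. The median level of the heat shock list lay between 211 and 262 CPM in the 6 libraries, and 12.5% of it was called. Among all genes of 100 CPM or more, 2.15% were called higher and 3.05% lower. HSPA8, the constitutive HSP70, held 3139.6, 3366 and 3419 CPM in K562 against 1376, 1398 and 1494 in K562/IM, and heat shock genes were called higher for 1 and lower for 2 of 24 tested, with a median log2 fold change of -0.40. In the integrated stress response 1 gene was called higher and 1 lower of 26 tested: PPP1R15A (GADD34), a phosphatase subunit, rose from 94.5 ± 8.38 CPM (SD, n = 3) to 228 ± 2.99 CPM (SD, n = 3), and ATF5, a transcription factor, fell from 72.7 ± 2.67 CPM (SD, n = 3) to 31.8 ± 1.42 CPM (SD, n = 3). Glycolysis genes were called higher for 2 and lower for 1 of 24 tested, with ENO2, the neuronal enolase, at 11.1 and 48.8 CPM. Of NRF2 target genes 2 of 24 tested were called lower and 0 higher, with a median of -0.42, among them PRDX1, a peroxiredoxin, at 958 and 474 CPM. Polycomb and DNA methylation genes were called for 1 of 32 tested, PHC1, with a log2 fold change of 1.07. Replication-dependent histone genes were called higher for 4 and lower for 0 of 53 tested, and since these messages mostly lack a polyA tail their level in polyA-selected libraries is uncertain.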
